A study of Arabidopsis thaliana with 15 samples.

Results

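Among 16179 Affymetrix probe sets that were paired with exactly 1 gene, 79 (0.488%) met a rule for genes raised in leaves of wholly darkened Arabidopsis plants and close to the light level in leaves darkened singly. The 79 probe sets stood for 79 different genes. They were chosen from the measured values. On the log2 scale of the deposited intensities, the mean of 3 arrays had to lie at least 0.8 (1.74-fold) above light in darkened plants (DP) at day 3 and at day 6. The mean in individually darkened leaves (IDL) had to lie between -0.5 and 0.5 (within 1.41-fold) of light at both days. The differences of DP and of IDL from light are therefore given as a description with no test. Family counts further below include members that passed a test against light, and nothing is read from that. Of the 79 genes, 6 carry a gene symbol in the annotation used here, 1 more is named in its synonyms, and the others are known by their locus code.

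The series measured leaf transcripts of Arabidopsis thaliana, ecotype Col-0, on 15 arrays in 5 groups of 3 biological replicates, and each replicate pooled 2 leaves from independent plants. The growth chamber ran at 22 °C, 8 h light and 16 h dark daily, and all leaves were harvested at noon. The light group was taken at day 0, before any darkening. DP leaves came from plants kept whole in dark boxes for 3 or 6 days, and IDL leaves were single fully expanded leaves under foil-coated covers for 3 or 6 days, on rosettes that stayed in the day and night cycle. No light group was taken at day 3 or day 6, so darkness and leaf age cannot be told apart in any difference from light. All 4 darkened groups are compared with the same 3 light arrays.

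A leaf in darkness stops fixing carbon and turns to stored starch, protein and lipid for energy. In Arabidopsis a single darkened leaf on a lit plant yellows fast and exports its nutrients to the rest of the plant, whereas leaves of a plant kept wholly in darkness yellow more slowly. The comparison of DP with IDL thus sets a darkened leaf on a darkened plant beside a darkened leaf on a plant in the day and night cycle. The dark box and the foil-coated cover differ along with the state of the plant, and the design cannot tell these apart.

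The arrays themselves were alike in scale. Array medians of the deposited intensity lay between 18.31 and 19.56, a range of 0.0952 on the log2 scale. Precision is limited by the 3 arrays of each group. A listed gene counts as measured here only where a probe set with exactly 1 gene in the annotation was matched to it. Of the mesophyll markers 2 of 5 were measured, SBPASE and PRK of the Calvin cycle, and their summed intensity was 1357 to 1419 in light, 162 to 196 and 144 to 156 in DP at day 3 and day 6, and 51.6 to 55.6 and 36.9 to 43.1 in IDL. The trichome patterning gene TRY, 1 of 6 epidermal markers, had intensities of 124 to 178 in light and 10.2 to 19.3 in the darkened groups. The guard cell gene FMA, 1 of 4 markers, had 38.0 to 43.9 in light and 39.8 to 61.7 in the darkened groups. None of the 5 phloem and xylem markers was matched to such a probe set. The lowest deposited intensity of any probe set was 5.19, so a value above 0 does not show that a marker was detected. In such bulk samples fewer cells of a type and less RNA per cell cannot be told apart, and the part of cell makeup in the results was not tested.

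The 79 genes rose in DP by a median of 1.06 at day 3 and 1.19 at day 6 on the log2 scale. At day 3 the rises ran from 0.80 to 3.94, and 44 of 79 were at least 2-fold. At day 6 they ran from 0.80 to 4.22, and 54 of 79 were at least 2-fold. In 73 of 79 genes every one of the 6 DP arrays lay above all 9 light and IDL arrays, a pattern found in 3.24% of all 16174 genes tested. The rule used these differences, so nothing is read from the share. The 6 genes in which arrays overlapped, AT5G54030, AT1G10340, AT4G34670, AT2G36220, AT4G13330 and AT2G26240, are singled out after their values were seen, and the lowest gap was -0.18, in AT2G26240.

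**Figure D1:**
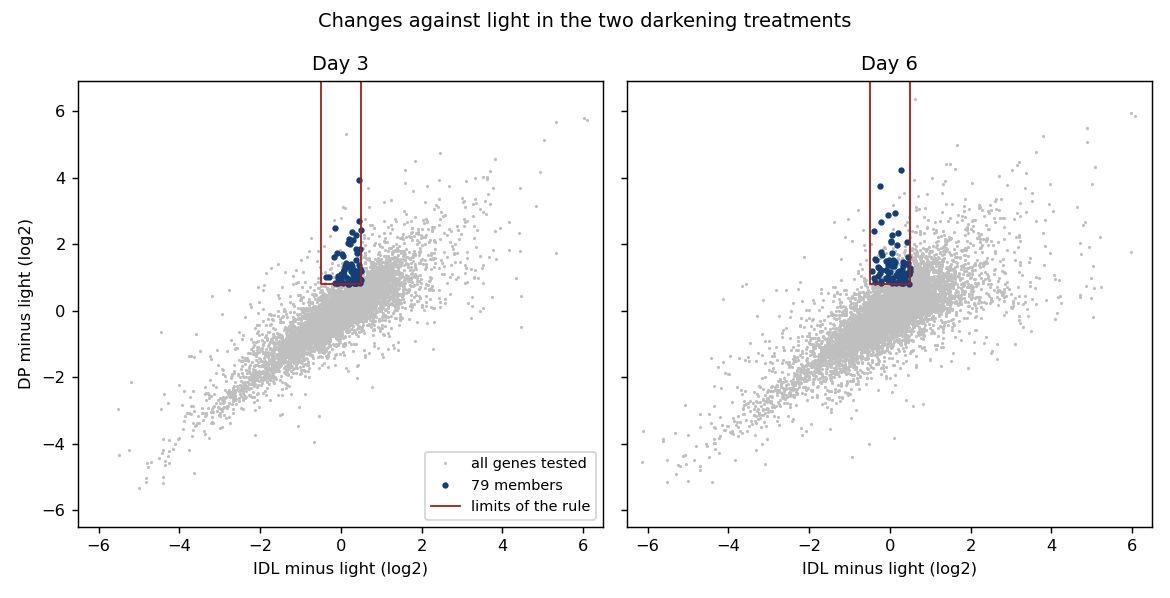
Difference from light on the log2 scale in DP (vertical axis) against that in IDL (horizontal axis), at day 3 and day 6, means of 3 arrays per group. Grey points are all genes tested, blue points the 79 members, and red lines the limits of 0.8, -0.5 and 0.5, so the position of the blue points is set by the choice.

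The limits of the rule leave room for a level in IDL that is not that of light. In IDL at day 3 the median difference from light over the 79 genes was 0.31, and 67 of 79 lay above 0 (84.8%), as did 62.3% of all genes within the same band. At day 6 the median was 0.11, and 50 of 79 lay above 0 (63.3%, against 56.2% of all genes within the band). Both days lay above 0 in 49 genes. "Raised only in darkened plants" is thus meant as the rule states it. The array medians of the 79 genes over the light mean were 0.23, 0.38 and 0.18 in IDL at day 3, with replicate 2 the highest, and 0.14, 0.11 and 0.18 at day 6. In DP they were 1.01 to 1.11 at day 3 and 1.14 to 1.20 at day 6.

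Genes just inside and just outside the limits differed little. For DP at day 3 AT1G53633, AT5G12410 and AT3G58640 lay inside at 0.80, 0.80 and 0.82, and AT5G55140, ALDH10A8 and AT1G06700 met all other limits at 0.80, 0.79 and 0.78. For DP at day 6 AT5G44250, AT1G11362 and AT2G26110 lay inside at 0.80, 0.82 and 0.83, and AT3G57170, AT1G01450 and AT3G48380 outside at 0.79, 0.78 and 0.75. The upper IDL limit at day 3 had AT3G51370, AT2G26120 and AT1G78150 inside at 0.49 each and AT2G20210, COV1 and AT1G71730 outside at 0.50 each. That at day 6 had AT4G13330, AT4G34670 and AT5G44250 inside at 0.49, 0.49 and 0.47, and AT2G34750, AT1G20690 and AT3G01490 outside at 0.50, 0.52 and 0.53. Few genes lay near the lower IDL limit, where AT2G35880, AT1G75180 and AT5G25265 came nearest at day 3 with -0.36, -0.30 and -0.16, and AT1G02380 and AT5G66060 lay outside at -0.56 and -0.59. At day 6 AT2G45670, AT3G18320 and AT2G35880 came nearest with -0.45, -0.41 and -0.40, and AT1G33600, AT1G64380 and AT4G21620 lay outside at -0.63, -0.64 and -0.69.

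The choice was also made on 2 replicate numbers at a time, which leaves the arrays of the remaining number unused. The genes so chosen are not the same set as the members. Without number 1, 2 and 3 they shared 48, 59 and 52 genes with the members. Within each choice all genes are compared with the same unused light array, so they are not independent repeats. The counts below describe these choices, and no conclusion about the members is drawn from them. Without the arrays of number 1 the rule chose 70 genes, and in the unused arrays the DP level lay above light at both days in 69 of them and above IDL at both days in 70. Both DP differences reached 0.8 there in 35 of 70, where 5.56% of all one-gene probe sets did, and all 4 limits were met by 22 (0.562% of all). Without number 2 it chose 93 genes. In the unused arrays 92 lay above light and 89 above IDL at both days, 64 reached 0.8 at both days (5.58% of all) and 18 met all 4 limits (0.346%). Without number 3 it chose 72, of which 71 lay above light and 71 above IDL, 59 reached 0.8 (5.07% of all) and 34 met all 4 limits (0.581%). The IDL values of the unused arrays lay within the band at both days in 49 of 70, 35 of 93 and 45 of 72 genes. Of all one-gene probe sets 58.2% to 61.45% lay within the band in the same single arrays, 42.0% to 44.9% had DP above light at both days, and 29.6% to 31.4% had DP above IDL. The median IDL difference at day 3 in the unused array was 0.02, 0.54 and 0.29.

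AT4G37220 had the largest rise. Its log2 level was 3.63, 3.25 and 4.04 in the 3 light arrays, and in DP it was 7.64, 7.53 and 7.56 at day 3 and 7.84, 8.09 and 7.65 at day 6. In IDL it was 3.84, 4.14 and 4.28 at day 3 and 4.12, 3.64 and 4.02 at day 6. The DP arrays stood more than 3 log2 units clear of all others, with a gap of 3.24 between the lowest DP array and the highest other array. The rise was 3.94 (15.3-fold) at day 3 and 4.22 (18.7-fold) at day 6, against 0.45 and 0.29 in IDL. Its light mean of 3.64 compares with a first quartile of 3.44 over all genes, and no background values were used. Whether such dim levels lie above background is not known here, so all folds against light are ratios of the deposited intensities.

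The next in size were AT1G63570, AT5G57650 and XTH33. AT1G63570 lay at 3.98, 3.53 and 3.62 in light, at 6.07, 5.33 and 6.13 at day 3 and 7.43, 7.73 and 7.23 at day 6 in DP, and at 3.65, 4.10 and 3.98 at day 3 and 3.46, 3.55 and 3.41 at day 6 in IDL. AT5G57650 lay at 3.48, 3.43 and 3.89 in light, at 5.72, 6.34 and 5.83 at day 3 and 6.43, 6.81 and 6.34 at day 6 in DP, and at 3.76, 4.39 and 3.47 at day 3 and 3.61, 3.58 and 3.95 at day 6 in IDL. In both genes the DP arrays lay apart from all others, by gaps of 1.23 and 1.33. AT1G63570 rose by 2.14 at day 3 and 3.75 at day 6 (4.40-fold and 13.5-fold), and AT5G57650 by 2.36 and 2.93.

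XTH33 (AT1G10550) belongs to the xyloglucan endotransglucosylase/hydrolases, which cut and rejoin the xyloglucan chains that tether cellulose in the cell wall. It lay at 3.86, 3.10 and 3.90 in light and at 5.82, 5.76 and 6.14 at day 3 and 6.83, 6.41 and 6.25 at day 6 in DP. In IDL it lay at 4.05, 3.96 and 3.98 at day 3 and 3.57, 3.57 and 3.59 at day 6. All 6 DP arrays were above the other 9 by a gap of 1.70. Its rise was 2.28 at day 3 and 2.87 at day 6 (4.87-fold and 7.33-fold), beside 0.38 and -0.04 in IDL.

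The other genes among the 15 largest rises are known by locus code, and their mean rise over both days ran from 2.57 down to 1.69. AT1G19380 lay at 4.74, 4.81 and 4.78 in light and at 7.33, 7.16 and 7.24 at day 3 and 7.51, 7.34 and 7.48 at day 6 in DP, with IDL at 4.42, 5.01 and 4.43 at day 3 and 4.48, 4.62 and 4.55 at day 6. The gap between DP and all other arrays was 2.16, and the IDL means stood at -0.16 and -0.23 relative to light. AT3G18320 (1.72 and 2.38 in DP at day 3 and day 6), AT2G03640 (2.04 and 1.97) and AT3G56130 (1.69 and 1.68) started from light levels above the median of all genes. AT2G26120 (2.42 and 2.27), AT1G09460 (2.01 and 2.07), AT2G42170 (2.11 and 1.77), AT2G45360 (1.74 and 2.06) and AT5G51790 (1.84 and 1.74) started from lower light levels, between 3.44 and 4.05. Of these AT2G42170, at 4.05, also lay above the median of all genes (3.97). AT1G62422 and AT3G11830, which changed between the days, are described with the day comparison. The 64 members after these 15 lay 0.80 to 1.84 above light in DP at day 3 (median 0.98) and 0.80 to 2.08 at day 6 (median 1.09). Their IDL differences ran from -0.36 to 0.49 at day 3 and from -0.45 to 0.49 at day 6.

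The light level is a term of every difference in the rule, and levels of different probe sets do not rank genes, so light levels are given only to show how dim the probe sets were. Their median was 5.41 over the 79 genes and 3.97 over all genes, and the highest was 8.49, in AT2G45670. Below the median of all genes lay 18 of 79, and 9 of these were among the 15 genes with the largest rises. At most the first quartile (3.44) was reached by 6 of 79. The median SD within groups was 0.173 over the 79 genes and 0.159 over all genes.

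**Figure D2:**
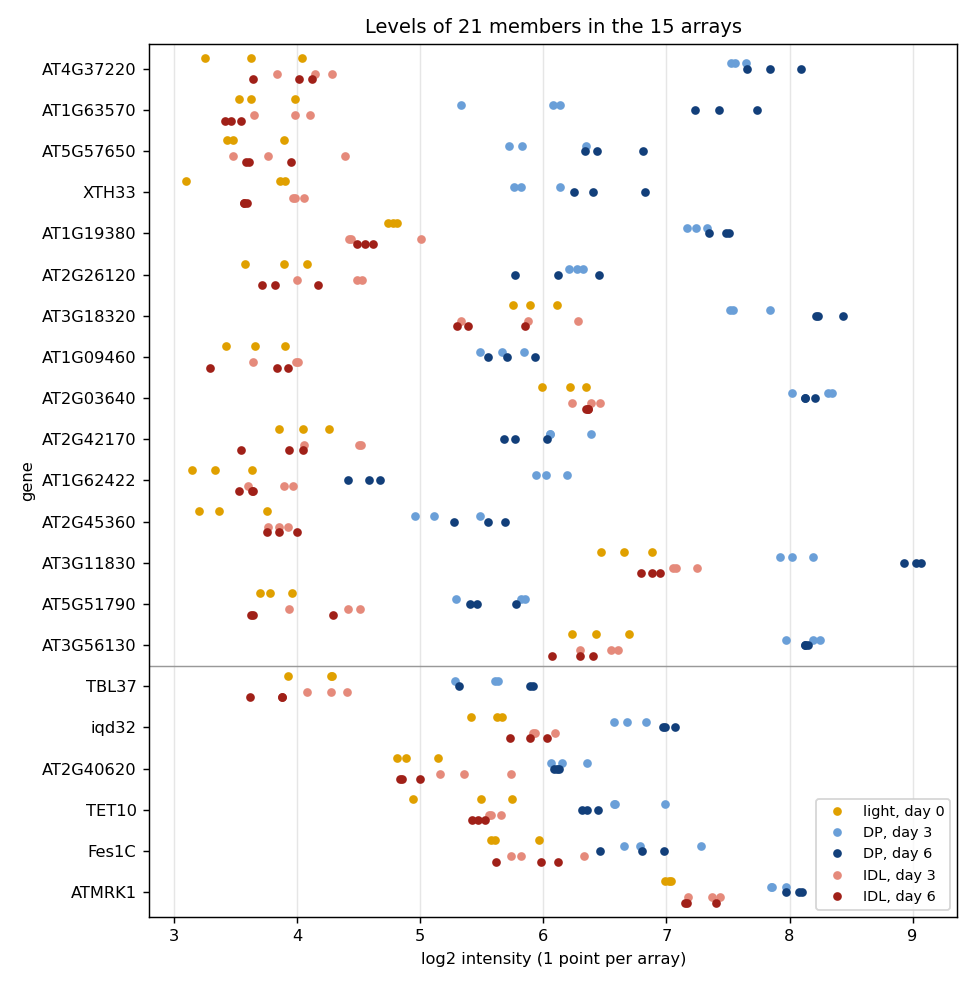
Log2 intensity of the 15 members with the largest rises (above the line) and of the 6 further members with a symbol or a named synonym (below it), 1 point per array and 3 arrays per group. In each of the 21 genes the 6 blue DP points lie to the right of the 9 light (yellow) and IDL (red) points, with the widest gap, 3.24, in AT4G37220.

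TBL37 (AT2G34070) belongs to the TRICHOME BIREFRINGENCE-LIKE family, whose members add acetyl groups to cell wall polysaccharides. It lay at 4.28, 3.93 and 4.28 in light, at 5.28, 5.60 and 5.63 at day 3 and 5.89, 5.32 and 5.92 at day 6 in DP and at 4.08, 4.40 and 4.27 at day 3 and 3.62, 3.88 and 3.88 at day 6 in IDL. DP arrays were higher than all others, and the IDL arrays of day 6 lay below every light array. The differences from light were 1.35 and 1.55 in DP and 0.09 and -0.37 in IDL.

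The gene iqd32 (AT1G19870) encodes an IQ-domain protein, of a plant family that binds calmodulin. Its levels were 5.63, 5.41 and 5.66 in light, 6.58, 6.68 and 6.83 at day 3 and 6.98, 7.07 and 6.99 at day 6 in DP and 5.91, 6.09 and 5.93 at day 3 and 5.73, 5.89 and 6.03 at day 6 in IDL. The groups did not overlap between DP and the rest, and all 6 IDL arrays lay above the 3 light arrays. Its rise in DP was 1.13 and 1.45, and its IDL means were 0.41 and 0.32 above light, inside the band of the rule.

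TET10 (AT1G63260) encodes a tetraspanin, a small membrane protein that organises other proteins in the plasma membrane. It lay at 5.75, 4.94 and 5.50 in light, at 6.58, 6.58 and 6.98 at day 3 and 6.44, 6.35 and 6.31 at day 6 in DP and at 5.65, 5.56 and 5.58 at day 3 and 5.47, 5.42 and 5.53 at day 6 in IDL. DP arrays were the highest, while the IDL arrays lay within the range of the light arrays. It rose by 1.32 and 0.97 in DP.

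Fes1C (AT5G02150) is named after yeast Fes1, which in yeast releases nucleotide from the chaperone Hsp70. It lay at 5.57, 5.97 and 5.61 in light, at 7.28, 6.65 and 6.78 at day 3 and 6.98, 6.80 and 6.46 at day 6 in DP and at 5.73, 6.33 and 5.81 at day 3 and 5.98, 5.61 and 6.12 at day 6 in IDL. The lowest DP array was 0.13 above the highest other array. The rises were 1.19 and 1.03.

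ATMRK1 (AT3G63260) encodes a protein kinase related to Raf. It lay at 7.02, 6.99 and 7.04 in light, at 7.98, 7.85 and 7.85 at day 3 and 8.08, 7.97 and 8.11 at day 6 in DP and at 7.37, 7.44 and 7.17 at day 3 and 7.17, 7.15 and 7.40 at day 6 in IDL. All IDL arrays lay above all light arrays and below all DP arrays. The differences from light were 0.87 and 1.03 in DP and 0.31 and 0.22 in IDL.

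AT2G40620, named bZIP18 in its synonyms, is a transcription factor of the basic leucine zipper family and was singled out after its name was seen. Its levels were 5.15, 4.89 and 4.81 in light, 6.06, 6.15 and 6.36 at day 3 and 6.09, 6.11 and 6.13 at day 6 in DP and 5.16, 5.74 and 5.35 at day 3 and 4.85, 4.996 and 4.84 at day 6 in IDL. The DP arrays did not overlap the others, and in IDL the day 3 arrays lay above those of day 6. It stood at 1.24 and 1.16 in DP, 0.47 in IDL at day 3 and -0.05 at day 6.

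The difference between day 6 and day 3 within DP does not enter the rule, although both of its terms had to lie at least 0.8 above light. At day 6, 9 genes were higher and 2 lower (limma's moderated test, adjusted p under 0.05 over all 16174 genes), and 68 did not pass. This is 13.9% of the 79, where 4.56% of all genes passed, 2.03% as higher and 2.53% as lower. Without an adjustment 28 of the 79 genes had p under 0.05 (35.4%, against 16.6% of all genes). The day 6 arrays lay wholly above those of day 3 in 22 of the 79 genes and wholly below in 8, as they did in 10.2% and 10.1% of all genes. The adjusted share of 13.9% is close to the 13.3% among all 844 genes that lay at least 0.8 above light in DP at both days whatever their IDL level, which include the 79. Under mirrored rules 7.46% of 67 genes lowered in DP and 1.19% of 168 genes raised in IDL passed. The rule for the 168 genes keeps their DP difference between the days between -1 and 1, so nothing is read from their share. The median difference was 0.07 over the 79 genes and 0.00 over all genes, and 62.0% of the 79 and 51.1% of all genes lay above 0.

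AT1G63570 rose most from day 3 to day 6 in DP, by 1.62 ± 0.18 (SE, n = 3 arrays per group; limma adjusted p = 1.35e-05), and every day 6 array lay above every day 3 array. AT2G25780 rose by 1.26 ± 0.13 (limma adjusted p = 4.14e-06). Its levels were 3.41, 3.31 and 3.27 in light, 4.14, 3.95 and 4.35 at day 3 and 5.48, 5.26 and 5.49 at day 6 in DP and 3.84, 3.65 and 3.59 at day 3 and 3.29, 3.21 and 3.58 at day 6 in IDL, so at day 3 DP stood barely above IDL and at day 6 well above it. AT3G11830 rose by 0.96 ± 0.12 (limma adjusted p = 4.11e-05), from 8.02, 7.93 and 8.19 at day 3 to 9.07, 8.93 and 9.03 at day 6, with light at 6.88, 6.47 and 6.66. AT5G48110 rose by 0.71 ± 0.15 (limma adjusted p = 0.00676) and AT1G25260 by 0.68 ± 0.14 (limma adjusted p = 0.00493). The other 4, AT3G18320, AT2G32600, AT1G06260 and AT3G58470, rose by 0.40 to 0.66 and are named to complete the count. The calls of AT3G18320 (limma adjusted p = 0.0440) and AT3G58470 (limma adjusted p = 0.0406) were the least firm. That of AT3G18320 was lost without each of 5 of the 6 DP arrays (adjusted p of 0.0730 to 0.171), light replicate 2 or replicate 1 of IDL at either day, and with array weights. That of AT3G58470 was lost without each of the 6 DP arrays (0.0666 to 0.125) or IDL day 6 replicate 2, with both centrings and with the compared arrays alone.

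AT1G62422 was the clearest exception. It lay at 3.33, 3.14 and 3.63 in light and at 5.94, 6.19 and 6.02 in DP at day 3, then at 4.67, 4.41 and 4.58 at day 6, with IDL at 3.60, 3.89 and 3.96 at day 3 and 3.53, 3.63 and 3.64 at day 6. All 3 day 6 arrays were below all 3 day 3 arrays and above all light and IDL arrays. It fell by 1.496 ± 0.13 between the days (limma adjusted p = 8.59e-07), from 2.68 above light to 1.19 on the log2 scale. AT1G10340 fell by 0.62 ± 0.15 (limma adjusted p = 0.0202), but it did not pass once DP day 6 replicate 2 was left out (-0.49, limma adjusted p = 0.127), nor once DP day 3 replicate 2 (0.0930) or 3 (0.0657) or DP day 6 replicate 1 (0.0510) was. Among members that carry a symbol or a named synonym none passed: XTH33 stood at 0.59 ± 0.18 (limma adjusted p = 0.0594, but 0.0146 to 0.0498 after quantile normalization, with the replicate block, or without light replicate 2, DP day 3 replicate 3 or DP day 6 replicate 3), iqd32 at 0.32 ± 0.12 (0.137), TET10 at -0.35 ± 0.15 (0.255), and TBL37, ATMRK1, AT2G40620 and Fes1C between -0.16 and 0.20.

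**Figure D3:**
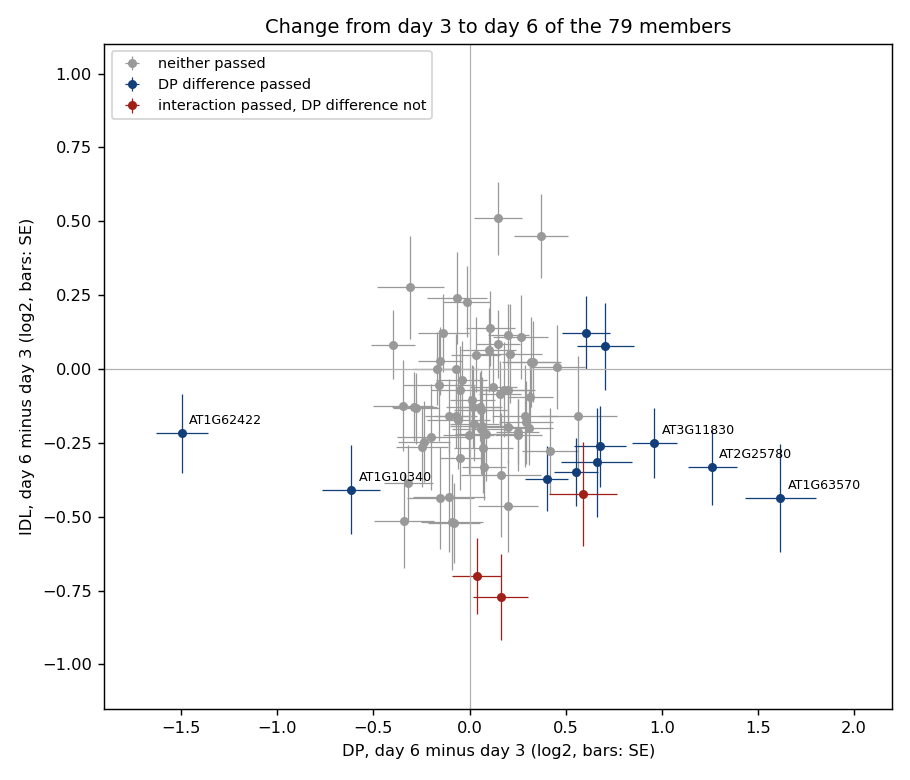
Day 6 minus day 3 on the log2 scale in DP (horizontal axis) and in IDL (vertical axis) for the 79 members, with bars for 1 standard error of the limma fit of 15 arrays. Blue points passed in DP, 9 to the right and 2 to the left of 0. Red points passed for the interaction and not in DP, and AT2G45670 and AT3G13740 among them also passed in IDL. The rule keeps every point between -1 and 1 on the vertical axis.

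In IDL the rule keeps the difference between the days between -1 and 1. Within this limit 1 gene was higher at day 6 and 5 were lower, 7.59% of the 79 against 8.64% of all genes (4.82% higher, 3.83% lower). The shares are near each other, but all genes are not held to the limit. Among the 844 genes raised in DP at both days whatever their IDL level 22.6% passed. AT2G45670 fell by 0.77 ± 0.15 (limma adjusted p = 0.00125), from 8.56, 9.28 and 8.61 at day 3 to 8.04, 8.13 and 7.96 at day 6, and replicate 2 of day 3 was the highest of these. Without that array it fell by 0.54 (limma adjusted p = 0.00714). AT3G13740 fell by 0.70 ± 0.13 (limma adjusted p = 0.000933), and its day 6 arrays lay below all light arrays. AT2G40620 (bZIP18) fell by 0.52 ± 0.14 (limma adjusted p = 0.0175), a call lost without replicate 2 of IDL at day 3 (-0.36, limma adjusted p = 0.136), without replicate 1 or 3 of IDL at day 6 (0.0678 and 0.0660) and with arrays centred on reference genes (-0.44, 0.0845). AT4G26480 rose by 0.51 ± 0.12 (limma adjusted p = 0.0107), a call lost without replicate 2 of IDL at day 3 (0.43, 0.0711) or of day 6 (0.47, 0.0528). The other 2 that fell were AT2G42170 (-0.51, limma adjusted p = 0.0457) and AT3G58470 (-0.37, limma adjusted p = 0.0398), and leaving out single arrays ended both calls. For AT2G42170 these were replicates 1 and 3 of IDL at either day, DP day 3 replicates 1 and 2, DP day 6 replicate 2 and light replicate 3 (adjusted p of 0.0503 to 0.248). For AT3G58470 they were IDL day 3 replicates 1 and 2 and IDL day 6 replicates 2 and 3 (0.110 to 0.194). Both were also lost with either centring and with the compared arrays alone. The call of AT2G42170 was lost as well with quantile normalization (limma adjusted p = 0.0596) and with the replicate block (0.0507). Over all 79 genes 57 lay lower at day 6 than at day 3 (72.2%, against 57.3% of all genes), with a median of -0.16 against -0.04.

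The interaction asks whether the change from day 3 to day 6 differs between IDL and DP. It passed in 11 of the 79 genes (13.9%, against 5.36% of all genes, 3.13% as higher and 2.23% as lower), with 10 in which the change was lower in IDL than in DP and 1, AT1G62422, in which it was higher (1.28 ± 0.19, limma adjusted p = 0.000158). Of the 10, 7 also rose in DP from day 3 to day 6, and the other 3 were XTH33, AT2G45670 and AT3G13740. The calls of AT3G13740 and AT3G18320 were lost when 1 array was left out, the former without DP day 3 replicate 1 or IDL day 3 replicate 2 (adjusted p of 0.0559 and 0.0578) and with reference centring (0.0528), the latter without DP day 3 replicate 1 or 3, DP day 6 replicate 2, or replicate 1 or 2 of IDL at either day (0.0607 to 0.0899). XTH33, the wall enzyme, differed by -1.01 ± 0.25 (limma adjusted p = 0.0171), with 0.59 in DP and -0.42 in IDL. AT1G63570 differed by -2.05 ± 0.26 (limma adjusted p = 2.36e-05), AT2G25780 by -1.60 ± 0.18 (6.39e-06) and AT3G11830 by -1.21 ± 0.17 (7.58e-05). Among the 844 genes raised in DP at both days 15.6% passed, a share near that of the 79. In 62 of the 79 genes (78.5%) none of the 3 day comparisons passed, against 87.2% of all genes.

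In the order of protein-coding genes in the RefSeq annotation, 2 pairs of members are direct neighbours. AT2G26110 and AT2G26120 on chromosome 2 rose by 1.06 and 2.42 in DP at day 3 and by 0.83 and 2.27 at day 6. AT5G39570 and AT5G39580 on chromosome 5 rose by 1.04 and 1.31 at day 3 and by 1.37 and 1.40 at day 6. In light AT2G26110 at 7.58, 7.87 and 7.66 and AT2G26120 at 4.08, 3.89 and 3.57. AT5G39570 lay at 8.15, 8.003 and 8.14 and AT5G39580 at 3.48, 3.26 and 3.73 in light, on the log2 scale of different probe sets. AT1G19380 and AT1G19400 on chromosome 1 are separated by 4 genes, of which 1 was measured and is no member. By chromosome the members made up 0.378% (chromosome 4, 9 genes) to 0.611% (chromosome 2, 15 genes) of the genes tested.

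The members with a family name were set beside the other measured genes whose symbol or synonym carries that name, families chosen after the members were known. Counts are of genes that passed against light in limma's test, where in DP at day 3 35.2% of all genes passed (17.2% higher, 18% lower) and at day 6 39.9% (20.3% and 19.6%). In IDL 39.6% passed at day 3 (20.8% higher, 18.8% lower) and 39.7% at day 6 (20.6% and 19.1%). Each family holds 1 member, which the counts below include among the genes that rose in DP. The rule set that rise and kept the member within 0.5 of light in IDL, where a member can still pass the test. Nothing is read from its part in the counts. Of 10 measured XTH genes 4 rose and 1 fell in DP at either day, and the median of the 10 was 0.20 and 0.11. XTH29 rose by 1.13 and 1.46 in DP and by 3.06 and 3.21 in IDL (largest limma adjusted p = 2.04e-06). EXGT-A3 rose by 1.13 and 1.00 in DP and by 0.55 and 0.49 in IDL, and XTH32 fell by 3.02 to 3.36 in all 4 groups. XTH16 rose by 0.42 and 0.53 in DP and stood at -0.33 and -0.38 in IDL, where day 6 passed (limma adjusted p = 0.0372). XTH33 was the 1 member of the family.

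Of 24 measured TBL genes 2 rose and 8 fell in DP at day 3, and 3 rose and 9 fell at day 6, TBL37 included among the rises. In IDL 2 rose and 9 fell at day 3, and 2 rose and 11 fell at day 6, where 19.1% of all genes fell. TBL26 fell by 5.03 and 4.66 in DP and TBL24 by 1.86 and 1.76. TBL38 stood at 0.18 in DP at day 3 (limma adjusted p = 0.432) and rose by 1.52 at day 6, and it rose by 1.29 and 1.87 in IDL. TBL25 fell by 0.98 and 1.44 in IDL and stood at 0.07 and -0.13 in DP. The median of the family was -0.05, -0.03, 0.01 and -0.29 in DP at day 3 and day 6 and in IDL at day 3 and day 6.

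Of 17 measured IQD genes 3 rose and 6 fell in DP at day 3, and 4 and 6 at day 6. In IDL 3 rose and 9 fell at day 3, and 1 rose and 9 fell at day 6. These rises in IDL can include the member iqd32, which stood at 0.41 and 0.32 there. IQD18 rose by 1.83 and 1.01 in DP and by 1.08 in IDL at day 3, and stood at 0.32 at day 6 of IDL (limma adjusted p = 0.0850). IQD31 fell by 1.67 and 2.31 in DP, and it fell by 2.45 and 3.23 in IDL. Of 12 measured tetraspanin genes 3 rose in DP at either day, TET10, TET8 and TET6. TET8 (1.32 and 1.16 in DP, 1.66 and 1.60 in IDL) and TET6 (0.94 and 0.82, then 1.74 and 2.19) rose in IDL too, in which TET10 stood at 0.20 and 0.08. TET2 fell by 0.36 in DP at day 3.

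Of 23 measured genes named as bZIP factors 8 rose and 3 fell in DP at either day. In IDL 8 rose and 6 fell at day 3, and 8 and 7 at day 6. The rises in IDL at day 3 can include the member AT2G40620, which stood at 0.47 there. FD, the partner of the flowering signal FT, rose by 0.52 and 0.50 in DP and stood at -0.15 and -0.30 in IDL (limma adjusted p = 0.448 and 0.106). BZIP60 of the unfolded protein response rose by 0.49 and 0.73 in DP and by 0.88 and 1.80 in IDL.

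**Figure D4:**
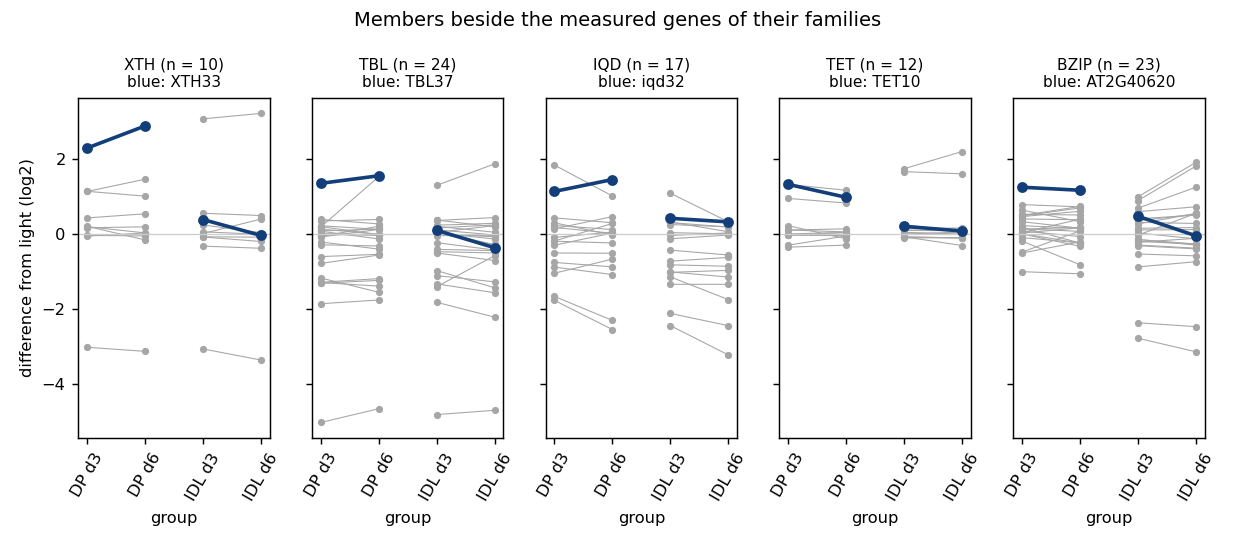
Difference from light on the log2 scale of each measured gene of 5 families in DP and IDL at day 3 and day 6 (d3, d6), means of 3 arrays per group, with lines joining the days of 1 treatment. The member in each family is drawn in blue, and grey lines are the other measured genes, 9 XTH, 23 TBL, 16 IQD, 11 TET and 22 bZIP genes.

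Lists of clock, light signalling, starvation, senescence and other dark response genes named 131 genes, of which 17 were measured. None of the 17 is a member, and with 0.488% of one-gene probe sets as members a list of this size says little either way. In DP 10 rose and 2 fell at day 3 and 10 and 3 at day 6, and in IDL 10 and 3 at day 3 and 9 and 1 at day 6. Of all genes 17.2% rose and 18% fell in DP at day 3, and 20.3% and 19.6% at day 6. In IDL 20.8% rose and 18.8% fell at day 3, and 20.6% and 19.1% at day 6. The lists were chosen with earlier results of these data known, so nothing is read from their counts. The lists for nitrogen assimilation, abscisic acid response and cell cycle had no measured gene. FHL, which helps to carry phytochrome A into the nucleus, came near the rule. It lay at 4.30, 4.16 and 4.62 in light, at 8.28, 7.93 and 7.94 at day 3 and 6.54, 6.35 and 6.89 at day 6 in DP and at 4.89, 4.91 and 5.27 at day 3 and 4.38, 4.42 and 4.45 at day 6 in IDL. It rose by 3.69 ± 0.15 and 2.23 ± 0.15 in DP (largest limma adjusted p = 6.45e-11), rose by 0.67 in IDL at day 3 (limma adjusted p = 0.00111), and stood at 0.06 at day 6, so the IDL limit at day 3 kept it out. The other 2 measured genes of light signalling were lower in both treatments. PIF7 fell by 2.58 and 2.43 in DP and it fell by 2.63 and 1.93 in IDL. HYH fell by 0.40 and 0.50 in DP, fell by 0.35 in IDL at day 3 (limma adjusted p = 0.0424) and stood at -0.18 at day 6, and the falls in DP at day 3 were reduced to 1 without light replicate 2 or 3 or DP day 3 replicate 3.

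NAI2, which shapes the ER bodies that store beta-glucosidases, was kept out by IDL at day 6. It lay at 3.69, 3.62 and 3.33 in light, at 9.20, 8.21 and 9.12 at day 3 and 9.64, 10.28 and 9.78 at day 6 in DP and at 3.60, 3.91 and 3.50 at day 3 and 3.84, 4.37 and 4.29 at day 6 in IDL, so the highest IDL array was far below the lowest DP array. In IDL it stood at 0.12 at day 3 and rose by 0.62 at day 6 (limma adjusted p = 0.0254). Of the 5 measured ER body genes 2, NAI2 and its regulator NAI1 (0.48 and 0.34), rose in DP at both days, and NAI1 also rose in IDL at day 3 (0.33, limma adjusted p = 0.0256) and stood at 0.18 at day 6. The beta-glucosidase genes PYK10, BGLU21 and BGLU22 did not pass in DP (-0.18 to 0.34). In IDL 1 of these 3 genes fell at day 3, and none of them passed at day 6. The 2 measured genes of sugar starvation, AKINBETA1 and BZIP53, rose in all 4 groups. Of the 3 clock genes COR27 and AT4G33980 rose in all 4, and GI passed in none. Among 4 senescence genes EIN3, WRKY6 and SAG101 rose in all 4 groups, while NOL rose in IDL (1.02 and 0.85) and fell in DP at day 6 by 0.63.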

How the data were processed

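Leaf RNA of 15 samples was hybridised to Affymetrix arrays. The authors deposited linear intensities of 26676 probe sets on each array, made with the R package oligo per the submitters' processing notes. The version, background correction and normalization were not given in the sources used here. Log2 was taken of the deposited intensity with no pseudocount or filter. The annotation paired 16179 probe sets with 1 gene, and the brightest probe set stood for each gene with several, which left 16174 genes. RefSeq (TAIR10.1) gave symbols for matched genes (16067 of 16179 probe sets), and 1613 of the genes tested carried one. Sequences were not analysed here.

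All arrays were fitted with limma 3.58.1 in R 4.3.3 (lmFit and eBayes, a mean per group, prior of 10.5 degrees of freedom). P-values were two-sided and adjusted over all genes (Benjamini-Hochberg, threshold 0.05). Only the limma fit of the day comparisons was tried on simulated data, with independent noise and changes placed in DP at day 6. The rule and the counts were not simulated. The members, lists and tests were chosen with earlier results of these data known. Named genes are members with a symbol, the 15 largest rises, the 5 (DP) or 3 (IDL, interaction) largest called day differences each way, genes at the limits, and called list genes. Groups by description keyword and promoter motifs were not analysed here. Alternatives changed the normalization, filter, probe summary, prior, weights, block, threshold and arrays.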

Additional observations from a re-analysis of the deposited data

Results flagged for a closer look

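The change from day 3 to day 6 differed between IDL and DP in 11 of the 79 genes (13.9%) by the interaction test of limma. Of all genes 5.36% passed, and of the 844 genes raised in DP at both days whatever their IDL level 15.6% did. For the 79 genes the rule keeps the IDL change between -1 and 1. Named among the 11 are AT1G62422 (1.28, limma adjusted p = 0.000158), AT1G63570 (-2.05, 2.36e-05), AT2G25780 (-1.60, 6.39e-06) and AT3G11830 (-1.21, 7.58e-05), where a negative value means a lower change in IDL than in DP.

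Outside the genes tested, 58 of 9909 probe sets with no gene in the annotation (0.585%) met the same rule, a share near the 0.488% of probe sets with 1 gene. Of 588 probe sets with several genes, 0 met it. These probe sets were chosen by the rule itself, and no test was made of them.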

How the results depend on the processing

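The number of genes that met the rule was 83 after quantile normalization (60 of the 79 among them), 78 with centring on the array median (74), 116 with centring on the reference genes (73), 69 with the median of 3 arrays (54) and 79 without the dim genes or with the mean of probe sets. It ranged from 70 to 93 when arrays were left out, and replicate 2 of IDL at day 3 moved it most among single arrays (92, with 78 of the 79). Which genes met the rule moved most with the light arrays. Without light replicate 1, 2 or 3 it kept 55, 66 and 61 of the 79. Without all arrays of number 1, 2 or 3 it kept 48, 59 and 52. In the reference centring the median of all genes lay at 0.13 and 0.16 in DP at day 3 and day 6. The number of members higher at day 6 in DP went from 9 to 2 with a 2-fold minimum (7 to 9 when arrays were left out), and the lower from 2 to 1 at an adjusted p under 0.01 or with the 2-fold minimum (1 to 2, with 1 left without replicate 2 or 3 of DP at day 3 or replicate 2 of day 6). In IDL the number higher was 2 with either centring or without the dim genes and 0 at the stricter p or with the 2-fold minimum, against 1 (0 to 2 when arrays were left out: 0 without replicate 2 of either day, 2 without light 1, DP day 3 replicate 2 or replicate 1 of either IDL day). The lower went from 5 to 3 and 2 with centring on the median and on the reference genes, to 2 at the stricter p and to 0 with the 2-fold minimum (3 to 7, lowest without replicate 2 of day 3 or 3 of day 6). The interaction had 4 lower with the 2-fold minimum against 10 (8 to 12) and 1 higher (1 to 2, with 2 without DP day 6 replicate 1). Over the listed pathway genes against light, 10, 10, 10 and 9 higher in DP and IDL at each day became 6, 6, 5 and 5 with the 2-fold minimum (9 to 10 and, for the last, 8 to 9 when arrays were left out). The 2 lower in DP at day 3 became 1 with reference centring, without dim genes, at the stricter p or with the 2-fold minimum (1 to 2). The 3 lower in DP at day 6 became 1 with the 2-fold minimum (3 to 3), the 3 in IDL at day 3 became 1 at the stricter p or with the 2-fold minimum (1 to 4, with 1 without replicate 1 or 3), and the 1 in IDL at day 6 stayed 1. The cause of these moves was not tested, beyond the stricter thresholds. Of 51 day differences recomputed, those of members called or with a name, 28 were called and none of these 28 turned its sign under the settings run, while 4 of those not called did. With the replicate number as a block 10 genes were higher and 2 lower at day 6 in DP and 1 and 4 in IDL. The interaction then had 1 and 10. Same-numbered arrays correlated at -0.08 to 0.09 (median 0.016) in their deviations from the group means. Arrays of different numbers correlated at -0.10 to 0.09 (median -0.0098). Correlations this small do not settle whether the numbers pair the samples. No background values were used, which limits what can be said of genes near the bottom of the scale.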

Other observations

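BZIP61 and BZIP34, both outside the rule, did not pass against light in DP at day 3 and fell in IDL. BZIP61 stood at 0.63 and 0.33 in DP (limma adjusted p = 0.0618 and 0.354) and fell by 2.78 and 3.14 in IDL. BZIP34 stood at -0.19 in DP at day 3 (limma adjusted p = 0.570), fell by 0.82 in DP at day 6, and fell by 2.37 and 2.47 in IDL. BZIP24 rose by 0.98 and 1.91 in IDL, fell by 0.51 in DP at day 3 and stood at -0.21 at day 6. These genes were noted after their values were seen.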
